A study of Mus musculus with 63 samples.

Results

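The alpha-arrestins are a small family of adaptor proteins, and 5 of their genes were followed here in the dorsal hippocampus of mice: Txnip, Arrdc1, Arrdc2, Arrdc3 and Arrdc4. They were chosen by symbol from a table of 55401 genes, and all 5 passed the filter on low counts, which kept 19974 genes. The family was taken up with the ethanol and sex results of these same libraries already known, so that ethanol and sex values are given below as descriptions, with no test. Strain, conditioning and the interactions of ethanol with conditioning and with sex were tested.

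Alpha-arrestins share the arrestin fold with the beta-arrestins and carry PPxY motifs, through which they recruit ubiquitin ligases of the NEDD4 family to membrane proteins that are then internalised. Txnip (thioredoxin-interacting protein) also binds and inhibits thioredoxin, and it lowers glucose uptake by promoting the endocytosis of glucose transporters. Its gene and Arrdc4 are induced by glucose through the paired transcription factors Mlx and MondoA (gene Mlxip) or ChREBP (gene Mlxipl). Arrdc3 is known for its part in the trafficking of the beta2-adrenergic receptor, and Arrdc1 for the budding of small vesicles from the plasma membrane with the ESCRT protein Tsg101.

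The study crossed strain, sex, drug and conditioning in adolescent mice of the inbred strains DBA/2J and C57BL/6J. Animals received acute EtOH (ethanol, 1.5 g/kg) or saline, and were fear conditioned (FC) or not (noFC). There were 32 libraries of DBA/2J (16 EtOH and 16 saline, 16 FC and 16 noFC, 16 male and 16 female) and 31 of C57BL/6J (16 EtOH and 15 saline, 15 FC and 16 noFC, 15 male and 16 female). Each of the 16 groups held 4 libraries, except male C57BL/6J mice with FC and saline, which had 3. The labels name no separate animals, so p-values measure the spread between libraries. They also give no time between treatment and dissection.

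Libraries held between 21027659 and 61631742 gene counts (median 26379948), and the members' counts from 103 (Arrdc1) to 4877 (Arrdc3) per library. All 13 markers of hippocampal neurons passed the filter; in CPM (counts scaled to the size of the library), Snap25 averaged 1680 CPM, Neurod6 226 CPM, Wfs1 197 CPM and Prox1 152 CPM. The summed level of 12 choroid plexus markers, led by Ttr, stood apart between libraries: it ran from 34.2 to 11220 CPM in DBA/2J and from 44.3 to 12482 CPM in C57BL/6J, with medians of 176 and 134 CPM. The titles number the libraries in 2 runs of numbers, the lower of which is named the first round below and the higher the second, and add a letter that the labels do not explain. Each conditioning state has its own letters, so that letter and conditioning cannot be told apart, whereas the letters of EtOH and saline were swapped between rounds.

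The promoters of the 4 members other than Arrdc1 are printed because Txnip, Arrdc2 and Arrdc3 varied together between libraries and Arrdc4, the other glucose-induced member, did not vary with them. Each is the 250 bases before the annotated start in RefSeq (build GRCm38.p6), 5′ to 3′ on the gene's strand; Arrdc3 has 3 such starts, of which the first is shown. Capitals mark matches, on either strand, to CACGNG, any 5 bases and CACGNG again (the tandem E-box form of a carbohydrate response element), CACGTG (E-box), GTAAACA (forkhead), GNACA, any 3 bases and TGTNC (glucocorticoid response element) or CCAAT (read as ATTGG on the other strand).
Txnip (chr3:96557707-96557956, plus strand): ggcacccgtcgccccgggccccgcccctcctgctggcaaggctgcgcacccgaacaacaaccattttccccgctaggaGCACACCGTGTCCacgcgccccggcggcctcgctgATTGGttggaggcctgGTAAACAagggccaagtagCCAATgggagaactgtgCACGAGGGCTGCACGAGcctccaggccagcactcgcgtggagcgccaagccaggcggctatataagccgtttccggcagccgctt
Arrdc4 (chr7:68749239-68749488, minus strand): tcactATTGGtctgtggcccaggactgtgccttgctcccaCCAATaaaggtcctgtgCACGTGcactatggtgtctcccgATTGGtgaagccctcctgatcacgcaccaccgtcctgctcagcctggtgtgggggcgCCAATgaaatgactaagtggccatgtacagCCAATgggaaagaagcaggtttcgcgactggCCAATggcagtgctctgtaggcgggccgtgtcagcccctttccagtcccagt
Arrdc2 (chr8:70839721-70839970, minus strand): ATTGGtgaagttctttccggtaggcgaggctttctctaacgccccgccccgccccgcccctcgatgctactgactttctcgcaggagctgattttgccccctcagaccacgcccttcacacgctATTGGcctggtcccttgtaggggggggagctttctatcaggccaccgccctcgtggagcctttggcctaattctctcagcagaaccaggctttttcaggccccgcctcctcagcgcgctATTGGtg
Arrdc3 (chr13:80883134-80883383, plus strand): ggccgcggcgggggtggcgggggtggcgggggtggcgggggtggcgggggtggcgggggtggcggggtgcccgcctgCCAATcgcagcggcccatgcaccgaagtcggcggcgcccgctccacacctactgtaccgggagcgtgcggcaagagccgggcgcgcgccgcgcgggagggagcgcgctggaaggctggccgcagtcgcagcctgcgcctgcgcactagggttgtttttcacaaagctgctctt

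Txnip held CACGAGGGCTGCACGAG at position -85 from its start, a match to the tandem E-box pattern that 0.0457% of 32851 promoters of the same length hold. It also held GTAAACA at position -121 (3.17% of promoters), GCACACCGTGTCC at position -172 (0.387% match its pattern) and CCAAT on each strand. A CCAAT match on either strand is found in 33.8% of promoters. Arrdc4 held CACGTG at position -193, found in 6.02% of promoters, and 6 CCAAT matches. Arrdc2 held 3 CCAAT matches and Arrdc3 1 at its first start. Arrdc1 matched none of the 5 patterns in this window. A match is only a run of letters and no measurement of binding was made.

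On the scale of RPKM (reads scaled by library size and by the gene length of the deposited table), Arrdc3 and Txnip had the highest levels of the family, Arrdc4 and Arrdc2 lay in the middle and Arrdc1 was lowest. Over all 63 libraries Arrdc3 (ENSMUSG00000074794, chromosome 13, 80883384 to 80896042, plus strand, build GRCm38) averaged 12.4 ± 1.92 RPKM (SD). Txnip (ENSMUSG00000038393, chromosome 3, 96557957 to 96561883, plus strand) averaged 11.8 ± 2.54 RPKM. Arrdc4 (ENSMUSG00000042659, chromosome 7, 68736995 to 68749241, minus strand) averaged 4.94 ± 0.62 RPKM. Arrdc2 (ENSMUSG00000002910, chromosome 8, 70835129 to 70839720, minus strand) averaged 4.69 ± 1.54 RPKM. Arrdc1 (ENSMUSG00000026972, chromosome 2, 24925352 to 24935252, minus strand) averaged 2.22 ± 0.35 RPKM. Neither Arrdc3 and Txnip nor Arrdc4 and Arrdc2 differed in level by more than their SD.

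The order of the middle pair depended on the strain. In DBA/2J, Arrdc4 averaged 5.11 ± 0.669 RPKM and Arrdc2 3.68 ± 0.821 RPKM (SD, n = 32), and in C57BL/6J Arrdc4 averaged 4.76 ± 0.52 RPKM and Arrdc2 5.73 ± 1.42 RPKM (SD, n = 31). Arrdc5, the remaining gene of that name, had 0 or 1 count per library and was not tested. The gene Gm15441, which lies antisense across Txnip, had 0 to 7 counts per library, and 1700023H06Rik, antisense within Arrdc3, 0 to 2 counts; the strand setting of the counting is not given in the sources used here.

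Txnip was the most variable member within groups. The SD of its log2 CPM between libraries of the same group was 0.27, larger than in 96.7% of the 2781 genes of a similar level (mean log2 CPM within 0.5 of its own), whose median SD was 0.10. The SD was 0.17 for Arrdc3 (larger than in 92.0% of 2327 genes of its level), 0.22 for Arrdc2 (88.3% of 2221 genes), 0.18 for Arrdc4 (83.7% of 2512 genes) and 0.19 for Arrdc1 (53.1% of 1617 genes).

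Strain was the comparison in which family members passed the test. Arrdc2 was lower in DBA/2J than in C57BL/6J and Arrdc1 was higher, so that 2 of the 5 members were called (adjusted p under 0.05) where 50.0% of the 19974 genes tested were (25.5% of the genes tested higher and 24.5% lower); the members' share is near that background. Arrdc2 stood at a lowest of 7.89, a median of 11.5 and a highest of 16.7 CPM in the 32 DBA/2J libraries, against 12.1, 17.4 and 28.0 CPM in the 31 C57BL/6J libraries. No DBA/2J library exceeded the C57BL/6J median, although the ranges overlapped. Its means were 11.9 ± 2.65 CPM in DBA/2J and 18.5 ± 4.59 CPM in C57BL/6J (SD), a log2 difference of -0.64 (SE 0.05, a fold of 0.643, adjusted p = 2.68e-15 by edgeR's quasi-likelihood test with Benjamini-Hochberg adjustment). In tissue of mixed cells, fewer cells of a type and less RNA per cell cannot be told apart.

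Arrdc1 ran from 4.35 over a median of 5.90 to 7.96 CPM in DBA/2J and from 3.64 over 5.11 to 6.53 CPM in C57BL/6J. The ranges overlapped widely, yet 28 of 32 DBA/2J libraries lay above the C57BL/6J median. Its log2 difference was 0.22 (SE 0.05, adjusted p = 0.000188, edgeR). Both calls held without any 1 of the 63 libraries. That of Arrdc1 was lost in the first round alone (0.17, SE 0.07, adjusted p = 0.0704, edgeR, against 0.25, SE 0.07, adjusted p = 0.00507 in the second round) and when the mean of the neuron markers entered the fit (0.08, SE 0.06, adjusted p = 0.272, edgeR); 7 of the 13 neuron markers were called lower and 2 higher in DBA/2J (median log2 difference -0.09).

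The other 3 members did not pass the strain test. Arrdc4 averaged 20.6 ± 2.70 CPM in DBA/2J and 19.2 ± 2.10 CPM in C57BL/6J (log2 difference 0.10, 95% interval 0.01 to 0.18, adjusted p = 0.0569, edgeR). This value lay close to the threshold: it passed in 19 of the 63 fits that left out 1 library, and with the neuron markers in the fit it was 0.26 (SE 0.05, adjusted p = 6.16e-06, edgeR). Txnip averaged 35.6 ± 8.40 CPM in DBA/2J and 38.1 ± 7.34 CPM in C57BL/6J (-0.11, interval -0.24 to 0.02, adjusted p = 0.165, edgeR), and Arrdc3 76.1 ± 13.4 CPM in DBA/2J and 78.9 ± 10.5 CPM in C57BL/6J (-0.06, interval -0.14 to 0.02, adjusted p = 0.216, edgeR). The strains also differed in cell type markers: all 10 oligodendrocyte markers were called lower in DBA/2J (median log2 difference -0.41; summed level 5191 to 14650 CPM in DBA/2J and 8513 to 18340 CPM in C57BL/6J). With the mean of these markers in the fit, the strain difference was 0.09 (SE 0.04, adjusted p = 0.0565, edgeR) for Arrdc3 and 0.03 (SE 0.08, adjusted p = 0.816, edgeR) for Txnip. With the neuron markers in the fit instead, Txnip (-0.22, SE 0.08, adjusted p = 0.0249, edgeR) and Arrdc3 (-0.13, SE 0.05, adjusted p = 0.043, edgeR) passed the test, as did Txnip with the choroid plexus markers (-0.15, SE 0.05, adjusted p = 0.00494, edgeR).

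**Figure D1:**
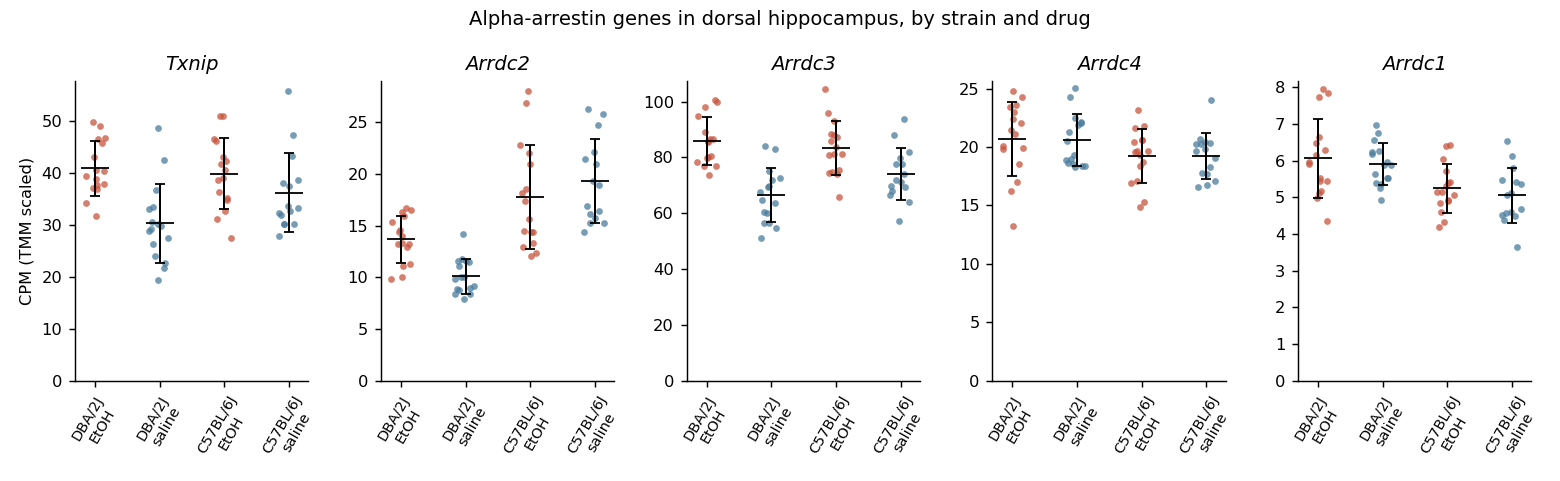
Level of each gene in CPM (vertical axis, from 0, a separate scale for each gene) in every library, by strain and drug; points are libraries and bars the mean ± SD of 15 or 16 libraries. Arrdc2 lies lower in DBA/2J than in C57BL/6J, and Txnip, Arrdc2 and Arrdc3 lie higher with EtOH than with saline in DBA/2J.

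The partners of the family were counted by role, with a call again meaning an adjusted p under 0.05 (edgeR) and 50.0% of all genes called. Of the 9 NEDD4-family ligases, Nedd4 was higher in DBA/2J (log2 difference 0.06, SE 0.02) and Itch (-0.10, SE 0.02), Wwp2 (-0.07, SE 0.02) and Nedd4l (-0.12, SE 0.03) were lower; the other 5 were not called. Of 12 ESCRT genes, Vps37a (0.16, SE 0.03) and Vps28 (0.08, SE 0.02) were higher in DBA/2J. Chmp4b (-0.05, SE 0.02), Pdcd6ip (-0.07, SE 0.02) and Vps37c (-0.05, SE 0.02) were lower. Vps37a, Vps28 and Vps37c are all subunits of the complex that holds Tsg101, so its called subunits went both ways. The medians of these lists were -0.04 and 0.00, against 0.01 over all genes.

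Among 8 tested genes of the wider arrestin fold, 4 were higher in DBA/2J and 1 was lower. Sag, the rod arrestin, differed by 0.93 (SE 0.08) at a mean of 2.21 CPM, Arrb2 (beta-arrestin 2) by 0.13 (SE 0.02), Rgp1 by 0.11 (SE 0.02) and the retromer-like Vps26c by 0.11 (SE 0.02). Vps26a, a retromer subunit, was lower (-0.08, SE 0.02). None of the 3 beta-adrenergic receptor genes was called. In the thioredoxin list, on whose protein Txnip acts, 4 of 12 genes were higher and 3 lower. The list also holds Nlrp3, which is not itself a thioredoxin gene and averaged only 0.76 CPM. Txnrd1 (0.16, SE 0.02), Nlrp3 (0.57, SE 0.11), Txnrd2 (0.09, SE 0.02) and Txn1 (0.08, SE 0.03) were higher. Prdx3 (-0.12, SE 0.02), Prdx6 (-0.12, SE 0.02) and Prdx2 (-0.08, SE 0.02) were lower. In the list of glucose uptake and its sensors, 4 of 10 genes were higher and 2 lower. The sensors themselves were 3 of the higher genes: Mlxip (0.16, SE 0.02), Mlx (0.08, SE 0.02) and Mlxipl (0.17, SE 0.05), next to the transporter Slc2a8 (0.09, SE 0.03), while hexokinase Hk2 (-0.14, SE 0.04) and G6pdx (-0.06, SE 0.02) were lower. Txnip and Arrdc4, the glucose-induced members, were not called.

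Fear conditioning left no gene called in either strain, and no member passed the test. In DBA/2J, 0% of genes were called with edgeR (670 at an unadjusted p under 0.05) and 0 with DESeq2 (631). In C57BL/6J, 0% were called with edgeR (786 at an unadjusted p under 0.05) and 6 genes with DESeq2 (739). The members' log2 differences between FC and noFC ran from -0.07 (Arrdc2) to 0.04 (Txnip) in DBA/2J and from -0.02 (Arrdc4) to 0.10 (Txnip) in C57BL/6J, each with an adjusted p of 1.0 (edgeR). Txnip averaged 36.0 ± 8.67 CPM in FC and 35.2 ± 8.38 CPM in noFC mice of DBA/2J (SD, n = 16 each), and 39.5 ± 8.40 CPM in FC (n = 15) and 36.8 ± 6.18 CPM in noFC mice of C57BL/6J (n = 16). Its 95% intervals were -0.14 to 0.22 in DBA/2J and -0.09 to 0.28 in C57BL/6J. The strain difference of the conditioning effect was also uncalled for all genes (0% with edgeR, 725 at an unadjusted p under 0.05; 0 with DESeq2) and lay between -0.07 and -0.04 for the members. All 12 choroid plexus markers had positive log2 differences with conditioning in DBA/2J (median 1.59), with none called, and their summed level ran from 34.2 to 11220 CPM in FC and from 41.9 to 7055 CPM in noFC mice of that strain. With the mean of these markers in the fit, Txnip stood at -0.08 in DBA/2J (SE 0.07, adjusted p = 0.989, edgeR).

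Whether conditioning changed the effect of ethanol was tested within each strain, and again no gene was called in DBA/2J (0% with edgeR, 1115 at an unadjusted p under 0.05; 0 with DESeq2) or in C57BL/6J (0% with edgeR, 497 at an unadjusted p under 0.05; 0 with DESeq2). Arrdc4 had the largest value of the family. In DBA/2J with FC it averaged 19.2 ± 3.15 CPM with EtOH and 21.2 ± 2.54 CPM with saline, and without FC 22.2 ± 2.61 CPM with EtOH and 19.9 ± 1.79 CPM with saline (SD, n = 8 each). The ethanol effect in FC minus that in noFC was -0.30 on the log2 scale (SE 0.12, interval -0.54 to -0.06, adjusted p = 0.837, edgeR). Arrdc4 libraries overlapped between all 4 of these groups. Hippocampal neuron markers had a median of -0.15 in the same contrast, and with their mean in the fit the value for Arrdc4 was -0.20. The other members lay between -0.19 (Arrdc2) and 0.17 (Arrdc1) in DBA/2J and all 5 between -0.15 (Arrdc1) and 0.15 (Txnip) in C57BL/6J. All 12 choroid plexus markers were negative in this contrast in DBA/2J (median -1.09) and positive in C57BL/6J (median 2.48), with none called; with their mean in the fit, Txnip stood at -0.09 (SE 0.13) in C57BL/6J, against 0.15 (SE 0.18) without it.

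The difference of the ethanol effect between males and females was likewise uncalled for every gene (0% with edgeR, 1011 at an unadjusted p under 0.05; 0 with DESeq2), and lay between -0.06 (Arrdc4) and 0.19 (Arrdc1, interval -0.01 to 0.39, adjusted p = 0.931, edgeR) for the members. All 12 choroid plexus markers had positive values in this contrast (median 2.33), with none called; with their mean in the fit Txnip stood at -0.03 (SE 0.09), against 0.12 (SE 0.13) without it.

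**Figure D2:**
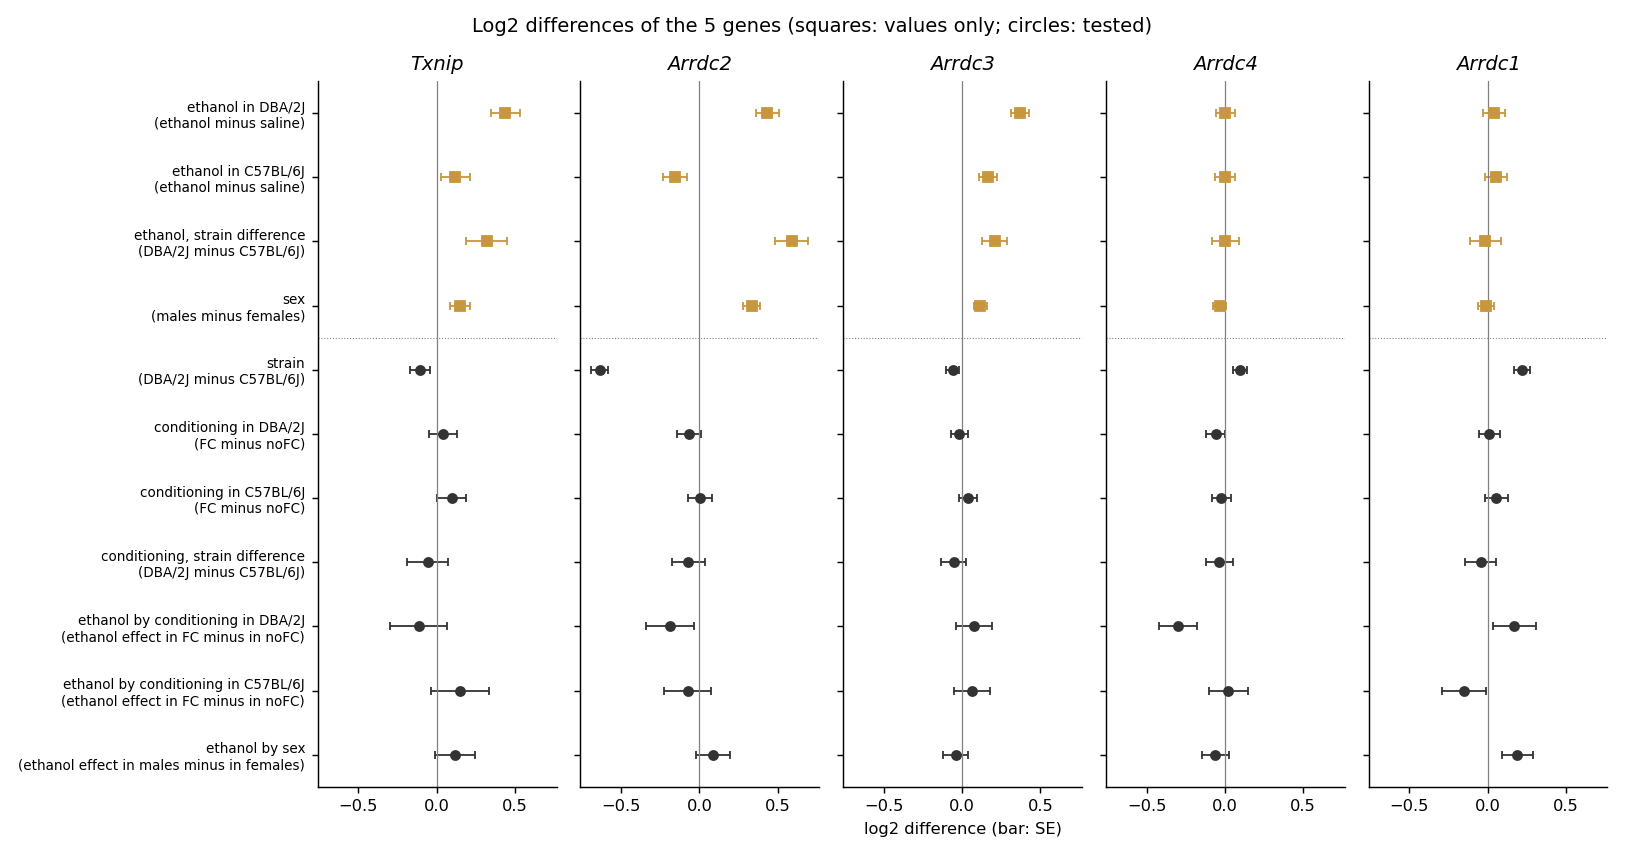
Log2 differences with their SE (horizontal axis) of each gene in 11 comparisons (vertical axis); squares are given as values only and circles were tested. Txnip, Arrdc2 and Arrdc3 lie right of 0 for ethanol in DBA/2J, and the 2 tested values past the threshold are those of Arrdc2 and Arrdc1 for strain.

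Ethanol is described without a test, since the family was chosen with these values known, and nothing is read from the shares of genes called: 0.295% in DBA/2J (0.135% higher, 0.160% lower) and 0.0901% in C57BL/6J (0.0350% higher, 0.0551% lower). In DBA/2J, Txnip, Arrdc2 and Arrdc3 were higher with EtOH than with saline, by folds of 1.36, 1.35 and 1.29, while the log2 differences of Arrdc1 and Arrdc4 were 0.04 (SE 0.07) and 0.00 (SE 0.06). Txnip stood at a lowest of 31.7, a median of 39.9 and a highest of 49.7 CPM in the 16 EtOH libraries, against 19.4, 29.5 and 48.6 CPM in the 16 saline libraries. All 16 EtOH libraries lay above the saline median, but only 2 above the highest saline library. The log2 difference was 0.44 (SE 0.09).

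Arrdc3, the adaptor of beta-adrenergic receptor trafficking, had more EtOH libraries above every saline library than Arrdc2 or Txnip. It stood at 73.9, 85.8 and 100.4 CPM (lowest, median, highest) with EtOH in DBA/2J, against 51.1, 66.3 and 84.1 CPM with saline, a log2 difference of 0.37 (SE 0.06). All 16 EtOH libraries lay above the saline median and 9 above the highest saline library. Arrdc2 stood at 9.82, 13.7 and 16.7 CPM with EtOH, against 7.89, 9.95 and 14.2 CPM with saline (0.43, SE 0.08), with 15 of 16 EtOH libraries above the saline median and 7 above the highest. In DBA/2J each of these genes had a positive value in all 4 combinations of sex and conditioning. The values ran from 0.33 to 0.65 for Txnip (SE 0.18 each) and 0.28 to 0.42 for Arrdc3 (SE 0.11 each). For Arrdc2 they ran from 0.30 to 0.57 (SE 0.15 each). These are parts of the same libraries and give no separate support.

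In C57BL/6J the values of these genes did not share a direction. Arrdc3 was again higher with EtOH (66.0, 82.6 and 104.7 CPM, against 57.04, 72.0 and 93.9 CPM with saline), with 15 of 16 EtOH libraries above the saline median and a log2 difference of 0.16 (SE 0.06). Txnip stood at 27.4, 39.8 and 51.0 CPM with EtOH, against 27.8, 33.3 and 55.9 CPM with saline (0.12, SE 0.09), and the groups overlapped. Arrdc2 lay lower with EtOH than with saline, at 12.1, 16.5 and 28.0 CPM against 14.4, 19.0 and 26.3 CPM (-0.15, SE 0.08). Its value was negative in all 4 combinations of sex and conditioning (-0.29 to -0.05, SE 0.15 to 0.16), which are parts of the same libraries. Arrdc1 stood at 0.05 (SE 0.07) and Arrdc4 at 0.00 (SE 0.06). The effect in DBA/2J minus that in C57BL/6J was 0.59 (SE 0.11) for Arrdc2, 0.32 (SE 0.13) for Txnip and 0.21 (SE 0.08) for Arrdc3; the 2 effects share no libraries. In the same contrast all 10 oligodendrocyte (median 0.13), all 10 endothelial (median 0.11) and all 5 blood markers (median 0.16) were positive, with none called. The endothelial markers were positive for ethanol in 10 of 10 cases in DBA/2J (median 0.06; summed level 279 to 365 CPM with EtOH and 264 to 335 CPM with saline) and in 0 of 10 in C57BL/6J (median -0.03; 279 to 354 CPM with EtOH and 274 to 355 CPM with saline). With their mean in the fit, the strain difference of the ethanol value was 0.58 (SE 0.11) for Arrdc2, 0.24 (SE 0.13) for Txnip and 0.17 (SE 0.08) for Arrdc3. With the blood markers it was 0.59 (SE 0.11), 0.32 (SE 0.13) and 0.21 (SE 0.08) for the same genes. With the oligodendrocyte markers it was 0.57 (SE 0.11), 0.28 (SE 0.12) and 0.16 (SE 0.06).

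The ethanol values of Txnip, Arrdc2 and Arrdc3 in DBA/2J were larger in the first round than in the second, a difference that was not tested. In DBA/2J, Txnip differed by 0.61 (SE 0.11) in the first round and 0.29 (SE 0.13) in the second, Arrdc2 by 0.58 (SE 0.09) and 0.29 (SE 0.11), and Arrdc3 by 0.50 (SE 0.08) and 0.25 (SE 0.08). In C57BL/6J, Txnip differed by 0.34 (SE 0.12) in the first round and -0.06 (SE 0.13) in the second, and Arrdc2 by 0.01 (SE 0.09) and -0.32 (SE 0.10). The strain difference of Arrdc2 was close in both rounds, at 0.57 (SE 0.13) and 0.61 (SE 0.15). In DBA/2J all 10 oligodendrocyte markers had positive ethanol values (median 0.16; summed level 7197 to 14650 CPM with EtOH and 5191 to 14469 CPM with saline). With the mean of these markers in the fit, the ethanol value in DBA/2J was 0.32 (SE 0.04) for Arrdc3, 0.41 (SE 0.08) for Arrdc2 and 0.39 (SE 0.09) for Txnip. All 12 choroid plexus markers had negative ethanol values in DBA/2J (median -0.28; summed level 34.2 to 7689 CPM with EtOH and 55.5 to 11220 CPM with saline), although the median of the summed level was higher with EtOH (449 CPM) than with saline (121 CPM). With their mean in the fit, Txnip differed by 0.45 (SE 0.06).

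The size of the strain difference of Arrdc2 varied with drug and with sex; this rests on the ethanol and sex values and so is given without a test. The log2 difference between DBA/2J and C57BL/6J was -0.34 (SE 0.07) among EtOH libraries and -0.93 (SE 0.08) among saline libraries, and -0.89 (SE 0.08) among males and -0.38 (SE 0.08) among females. In male saline mice Arrdc2 stood at 7.89, 10.1 and 14.2 CPM (lowest, median, highest) in DBA/2J (n = 8). In C57BL/6J (n = 7) it stood at 19.0, 22.1 and 26.3 CPM. The log2 difference was -1.15 (SE 0.11), the largest in size among the combinations of sex and drug. In female EtOH mice Arrdc2 stood at 9.82, 13.3 and 16.3 CPM in DBA/2J, against 12.1, 13.9 and 15.6 CPM in C57BL/6J (n = 8 each), with a log2 difference of -0.05 (SE 0.11). Male EtOH mice differed by -0.64 (SE 0.10) and female saline mice by -0.72 (SE 0.11).

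Sex too is described without a test; over both strains the calls made up 0.200% of the genes tested (0.0801% higher in males, 0.120% lower). Arrdc2 was higher in males than in females of C57BL/6J, at 17.4, 22.02 and 28.0 CPM (lowest, median, highest) in 15 males and 12.1, 14.9 and 19.3 CPM in 16 females, a log2 difference of 0.59 (SE 0.08). In DBA/2J the 16 males (7.89, 11.6 and 16.7 CPM) and the 16 females (8.39, 11.3 and 16.3 CPM) had overlapping ranges (0.08, SE 0.08). The male minus female value in DBA/2J minus that in C57BL/6J was -0.51 (SE 0.11). Txnip (0.27, SE 0.09) and Arrdc3 (0.21, SE 0.06) were also higher in males of C57BL/6J and stood at 0.03 (SE 0.09) and 0.02 (SE 0.06) in DBA/2J. Arrdc1 was at -0.09 (SE 0.07) in C57BL/6J and 0.07 (SE 0.07) in DBA/2J, and Arrdc4 at 0.03 (SE 0.06) and -0.10 (SE 0.06).

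Cell type markers also had unequal levels between the sexes within each strain, with none called. In C57BL/6J all 12 choroid plexus markers had positive male minus female values (median 1.41), and their summed level had a median of 373 CPM in males (44.3 to 5445 CPM) and 112 CPM in females (56.9 to 12482 CPM). In DBA/2J 2 of the 12 were positive (median -0.12), with a median summed level of 148 CPM in males (34.2 to 11220 CPM) and 1508 CPM in females (41.9 to 7689 CPM). All 5 blood markers were positive in both strains (median 0.32 in DBA/2J and 0.47 in C57BL/6J), as were 10 and 9 of the 10 oligodendrocyte markers (0.09 and 0.05) and 10 and 9 of the 10 endothelial markers (0.08 and 0.03).

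With the mean of the choroid plexus markers in the fit, the sex value in C57BL/6J was 0.18 (SE 0.07) for Txnip, against 0.27 without it. Under the same fit it was 0.56 (SE 0.07) for Arrdc2 and 0.18 (SE 0.05) for Arrdc3. In DBA/2J that fit gave 0.07 (SE 0.06) for Txnip, 0.09 (SE 0.07) for Arrdc2 and 0.04 (SE 0.05) for Arrdc3. The value in DBA/2J minus that in C57BL/6J was then -0.11 (SE 0.09) for Txnip, against -0.24 (SE 0.13) without the markers, and -0.47 (SE 0.11) for Arrdc2. With the endothelial, oligodendrocyte or blood markers in the fit instead, the C57BL/6J values lay between 0.58 and 0.59 for Arrdc2, 0.24 and 0.25 for Txnip and 0.19 and 0.20 for Arrdc3.

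**Figure D3:**
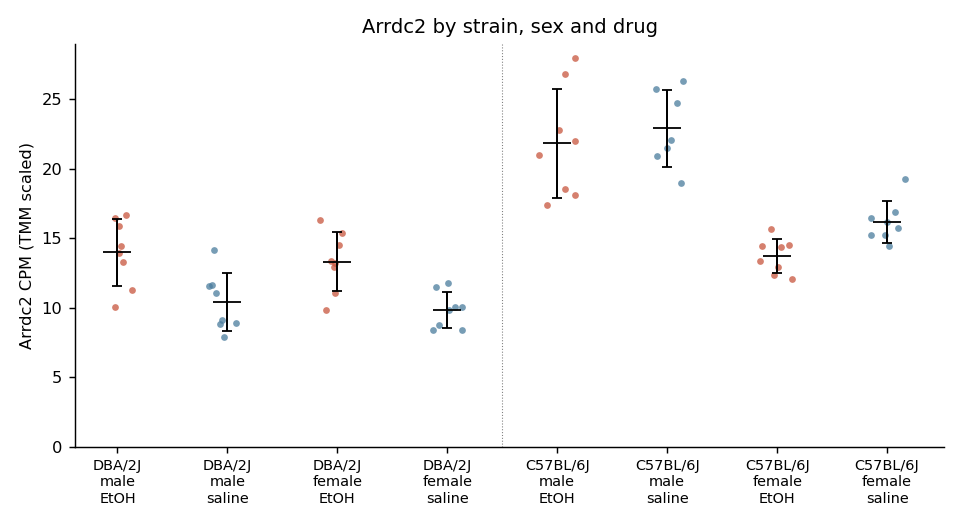
Arrdc2 in CPM (vertical axis) in every library by strain, sex and drug; points are libraries and bars the mean ± SD of 7 or 8 libraries. Males of C57BL/6J lie highest, between 17.4 and 28.0 CPM, and DBA/2J mice given saline lowest, between 7.89 and 14.2 CPM.

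The members' deviations from the mean of their own group were compared over all 63 libraries, which leaves out the differences between groups. Txnip varied together with Arrdc2 and with Arrdc3, and Arrdc1 varied against Arrdc4. For Arrdc2 and Txnip, Pearson's r was 0.61 and Spearman's rho 0.61; for Arrdc3 and Txnip r was 0.57 and rho 0.61; and for Arrdc1 and Arrdc4 r was -0.63 and rho -0.60. Each of these had p = 1e-05 by a two-sided permutation test, the smallest that 100000 resamples can give, and 3.33e-05 after Benjamini-Hochberg adjustment over the 10 pairs. The resamples shuffled all 63 libraries freely, although removing the 16 group means leaves 47 degrees of freedom. The permutation p-values here and below are therefore too small, by an amount that was not measured. Arrdc2 and Arrdc3 had r = 0.36 and rho = 0.37 (permutation p = 0.0039, adjusted 0.00975, for r; 0.00333, adjusted 0.00833, for rho). Without the 2 libraries farthest from the median, r was 0.56 for Arrdc2 and Txnip, 0.55 for Arrdc3 and Txnip, -0.58 for Arrdc1 and Arrdc4 and 0.30 for Arrdc2 and Arrdc3. The other 6 pairs had r between 0.01 and 0.13, with an adjusted permutation p of 0.633 or more.

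These relations were present in both rounds, with r of 0.61 and 0.63 for Arrdc2 and Txnip, 0.68 and 0.47 for Arrdc3 and Txnip, -0.68 and -0.63 for Arrdc1 and Arrdc4 and 0.33 and 0.44 for Arrdc2 and Arrdc3. Within DBA/2J r was 0.75 for Arrdc2 and Txnip, 0.71 for Arrdc3 and Txnip and 0.56 for Arrdc2 and Arrdc3, and within C57BL/6J it was 0.36, 0.33 and 0.04; the difference between strains was not tested. After each library's slopes of expression on GC content and transcript length were removed, r was 0.62 for Arrdc2 and Txnip, 0.59 for Arrdc3 and Txnip, 0.49 for Arrdc2 and Arrdc3 and -0.62 for Arrdc1 and Arrdc4.

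**Figure D4:**
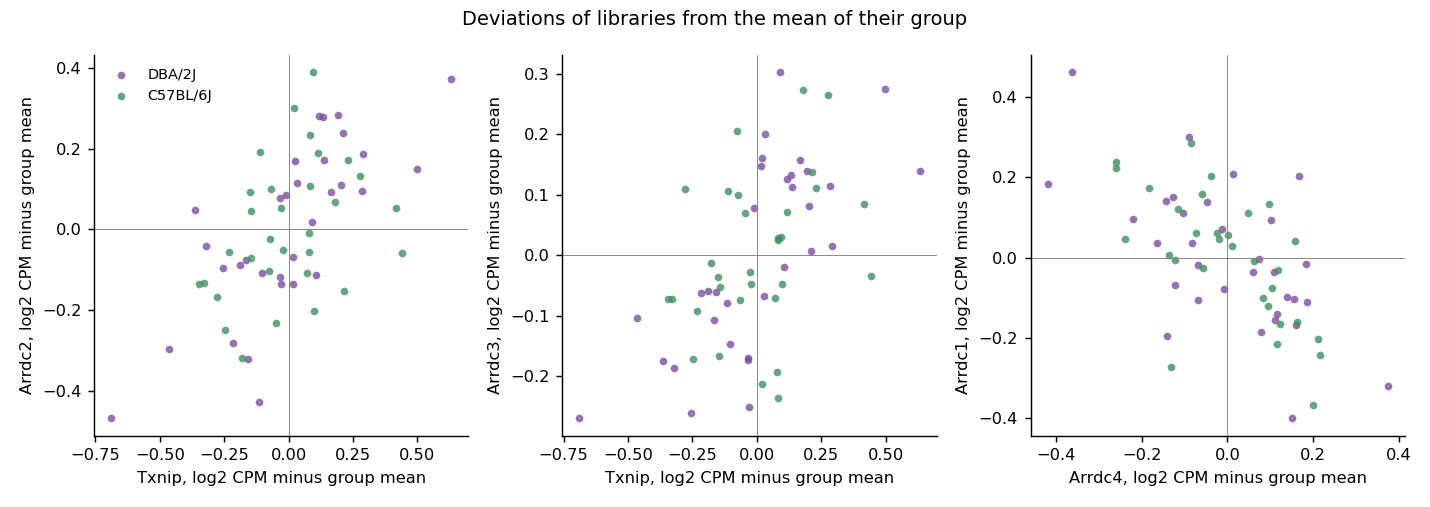
Deviation of each library from the mean of its group, in log2 CPM, for 3 pairs of genes (both axes); each point is 1 of 63 libraries, coloured by strain. Txnip varies together with Arrdc2 (r = 0.61) and Arrdc3 (r = 0.57), and Arrdc1 runs against Arrdc4 (r = -0.63).

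The same deviations followed measures of each library, among them the cell type markers. Of 50 relations, 10 had an adjusted permutation p under 0.05 for r. These p-values also come from free shuffles of all 63 libraries and are too small, so a relation near the threshold may not pass a stricter test. Txnip followed the mean of the 12 choroid plexus markers (r = 0.71, rho = 0.69), and also the oligodendrocyte markers (r = 0.38, rho = 0.43). Arrdc3 followed the oligodendrocyte markers (r = 0.67, rho = 0.69), the astrocyte markers (r = 0.51, rho = 0.51) and the choroid plexus markers (r = 0.44, rho = 0.49), so that Txnip and Arrdc3 had 2 lists in common. Arrdc4 followed the markers of hippocampal neurons (r = 0.61, rho = 0.58) and ran against those of endothelium (r = -0.44, rho = -0.42). Arrdc1 ran against the neuron markers (r = -0.47, rho = -0.41) and followed the blood markers (r = 0.35, rho = 0.31). Arrdc2, whose transcript is 59.4% GC (higher than in 94.1% of genes), followed the slope on GC content (r = 0.46, rho = 0.45). Arrdc1, whose transcript is 58.6% GC, had r of 0.25 and rho of 0.15 with that slope (adjusted permutation p = 0.141 for r). Within strains Arrdc1 had r of 0.57 in DBA/2J and -0.08 in C57BL/6J. With this slope Arrdc2 had r of 0.66 in DBA/2J and 0.24 in C57BL/6J, a difference that was not tested. Over both strains its r with any marker list was 0.26 or less in size, but within strains it was not: r with the choroid plexus markers was 0.56 in DBA/2J and -0.20 in C57BL/6J, with the oligodendrocyte markers 0.55 and -0.27, and with the blood markers 0.15 and -0.54, differences between strains that were not tested. Txnip with the choroid plexus markers and Arrdc3 with the oligodendrocyte markers had a two-sided permutation p of 1e-05 for r, the smallest 100000 resamples can give (0.00025 after Benjamini-Hochberg adjustment over 50 relations). The p for r was 2e-05 for Arrdc4 with the neuron markers (adjusted 0.000333), 6e-05 for Arrdc3 with the astrocyte markers (adjusted 0.00075), 8e-05 for Arrdc1 with the neuron markers (adjusted 8e-04) and 0.00025 for Arrdc2 with the GC slope (adjusted 0.00208), all by the same permutation test; the adjusted permutation p for rho was 0.00556 or less for each of them. For the other 4 relations the permutation p for r was 4e-04 (adjusted 0.0025) for Arrdc3 with the choroid plexus markers, 0.00037 (adjusted 0.0025) for Arrdc4 with the endothelial markers, 0.00171 (adjusted 0.0095) for Txnip with the oligodendrocyte markers and 0.00492 (adjusted 0.0246) for Arrdc1 with the blood markers, the last of which had an adjusted permutation p of 0.051 for rho. In the first and second round r was 0.67 and 0.74 for Txnip with the choroid plexus markers, 0.66 and 0.71 for Arrdc3 with the oligodendrocyte markers, 0.63 and 0.44 for Arrdc3 with the astrocyte markers, 0.56 and 0.54 for Arrdc4 and -0.50 and -0.45 for Arrdc1 with the neuron markers, and 0.46 and 0.45 for Arrdc2 with the GC slope. For the other 4 relations r was 0.49 and 0.38, -0.36 and -0.37, 0.52 and 0.28, and 0.35 and 0.34 in the first and second round, in the order just given, and 0.44, -0.37, 0.43 and 0.24 without the 2 most distant libraries. Leaving out the 2 most distant libraries gave r of 0.74 (Txnip), 0.62 and 0.48 (Arrdc3 with oligodendrocyte and astrocyte markers), 0.60 (Arrdc4), -0.45 (Arrdc1) and 0.45 (Arrdc2).

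**Figure D5:**
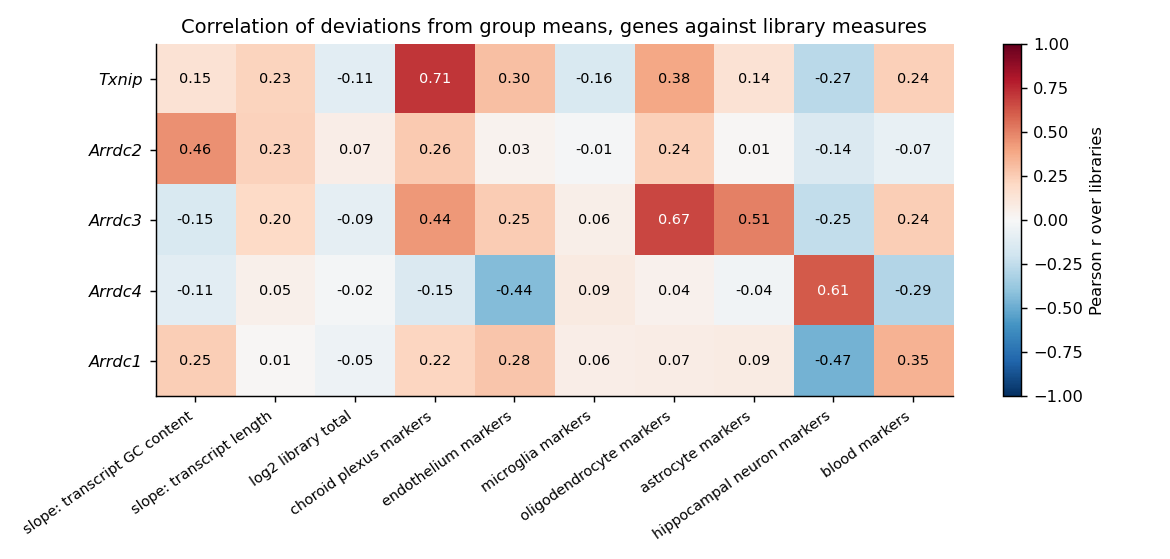
Pearson's r over 63 libraries (colour and printed value) between each gene (rows) and 10 measures of a library (columns), both as deviations from group means. The highest values are those of Txnip with choroid plexus markers (0.71) and Arrdc3 with oligodendrocyte markers (0.67).

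The protein-coding genes most like each member were named by Pearson's r of log2 CPM over the 63 libraries, after the means of each strain and sex were removed, so that ethanol differences enter the measure. Txnip was nearest to Tob2 (r = 0.76, an antiproliferative factor of the BTG family), Sgk1 (0.75, serum and glucocorticoid regulated kinase), Tgif1 (0.73), Mavs (0.72) and Vangl1 (0.72). Arrdc2 was also nearest to Sgk1 (0.74), followed by Tsc22d3 (0.73, the glucocorticoid-induced leucine zipper), Arl4d (0.72), Pnpla2 (0.71, a triglyceride lipase) and Ada (0.69, adenosine deaminase). Arrdc3 was nearest to Wipi1 (0.73, an autophagy protein), Tmcc3 (0.73), Trp53inp1 (0.72), Polr3e (0.71) and Txnip itself (0.71).

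Arrdc4 and Arrdc1 had other neighbours. Arrdc4 was nearest to Orai2 (0.82, a calcium channel), Scn3b (0.79, a sodium channel subunit), Prickle2 (0.78), Sphkap (0.78) and Dhx33 (0.78). Arrdc1 was nearest to Sema4g (0.68, a semaphorin), Eno3 (0.68, an enolase), Plekha7 (0.67), Camk2n2 (0.67, an inhibitor of CaM kinase II) and Pcgf2 (0.66). These are the 5 highest values among all protein-coding genes tested for each member, and they carry no p.

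How the estimated counts of a gene were divided among its transcripts was compared between strains. None of the 4 members tested was called, where 25.7% of 9569 genes were (limma diffSplice on voom values, Simes p per gene, Benjamini-Hochberg adjustment). The adjusted p was 0.358 for Arrdc3, 0.68 for Arrdc1, 0.721 for Arrdc2 and 0.889 for Txnip, and Arrdc4 had too few transcripts past the filter to test. The test used all 63 libraries, whereas the shares that follow are those of the EtOH libraries alone. In mice given EtOH, Arrdc3-201 held 92.6% ± 4.33 of the gene's counts in DBA/2J and 90.7% ± 4.62 in C57BL/6J (SD, n = 16 each), and Arrdc4-201 95.4% ± 1.78 and 95.3% ± 1.80. Txnip was split between Txnip-202, with 64.4% ± 9.90 in DBA/2J and 58.6% ± 11.1 in C57BL/6J, and Txnip-201, with 33.4% ± 9.76 and 40.0% ± 10.9. Over all 63 libraries, the log2 difference of Txnip-202 against the rest of the gene was 0.03 between strains (SE 0.15). Arrdc1-201 held 63.4% ± 11.1 in DBA/2J and 69.8% ± 8.94 in C57BL/6J. Arrdc2 was spread over several transcripts: its coding transcript Arrdc2-201 held 44.6% ± 10.4 in DBA/2J and 44.5% ± 7.77 in C57BL/6J, and the annotated retained-intron transcript Arrdc2-206 25.3% ± 6.78 and 23.5% ± 5.44.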

How the data were processed

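RNA from the dorsal hippocampus was sequenced from stranded mRNA libraries as single reads, per the labels' protocols. The deposited gene table holds raw counts per gene, with a gene length. A second table holds the authors' estimated counts per transcript, of which 46.8% of values are not whole. The submitters' processing notes name fastp, HISAT2, featureCounts, Salmon and DESeq2, with no versions, and the build GRCm38. Gene symbols and positions came from GENCODE, which held 55141 of the 55401 genes. The strand setting used in counting is not given in the sources used here.

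The gene counts were fitted with edgeR 4.0.16 in R 4.3.3 (TMM scaling, a filter at a minimum count of 10, 1 coefficient for each of 16 groups, quasi-likelihood test, 47 residual degrees of freedom, two-sided, Benjamini-Hochberg adjustment over 19974 genes, called at an adjusted p under 0.05). The standard error is the size of the log2 difference divided by the square root of F. CPM are TMM-scaled; log2 CPM used a prior count of 2; RPKM used the deposited gene lengths. Transcript usage was tested on rounded estimated counts with limma 3.58.1; 0.729% of these counts lay on transcripts outside the annotation and were left out. DESeq2 1.42.0 served as an alternative. No 2 libraries of a group agreed within sampling noise (lowest chi-square per gene 4.46 over 93 pairs).

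The members and lists were chosen with earlier results of these data known. Genes named beside the members are up to 4 per direction of each list, by the smallest p among those called, and the 5 most like each member. Alternatives were other scalings, no filter, transcript sums, each strain alone, a replicate block, each of 2 rounds of title numbers, marker covariates and leaving out each library. The edgeR and limma fits were tested on simulated data.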

Additional observations from a re-analysis of the deposited data

Results flagged for a closer look

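In 3 of 75 sets of 4 libraries of the same group, 1 library lay far from the other 3 (Dixon's test of the gap over the range, which chance passes in about 1 of 20 groups). Arrdc2 stood at 11.6 CPM in 1 library of male DBA/2J mice without conditioning and with saline, against 8.83 to 9.11 CPM in the other 3. The same library held Arrdc4 at 21.9 CPM, against 18.4 to 18.6 CPM in the others. Among male DBA/2J mice without conditioning and with EtOH, Arrdc4 stood at 16.97 CPM in 1 library, against 23.4 to 24.3 CPM in the others.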

How the results depend on the processing

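Over the alternatives other than leaving out a library, 461 of 470 tested values of the members kept their direction where called and their side of the threshold, 2 lost the call and 7 gained one; 35 values that were not called changed sign. No call was reversed. For strain, Arrdc1 lost its call in the first round of titles (0.17) and with the neuron markers as a covariate (0.080). Arrdc4 gained a call with upper-quartile scaling (0.10), the round as a covariate (0.10), the choroid plexus markers (0.10) and the neuron markers (0.26), and ranged from 0.081 to 0.113 (called in 19 of 63 fits) when each library was left out. Txnip gained one with the choroid plexus markers (-0.15) and the neuron markers (-0.22), and Arrdc3 with the neuron markers (-0.13). The cause was not tested; the neuron, oligodendrocyte and blood covariates, and every covariate fit of sex within a strain, were chosen after seeing the data.

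Counts of called genes moved more. For ethanol in DBA/2J (59 genes) the count was 110 with DESeq2, 33 without the filter, 27 with each strain alone and 15 in the second round of titles. For ethanol in C57BL/6J (18 genes) it was 0 in the first round of titles and 1 in the second round of titles. For the strain difference of ethanol (2 genes) it was 6 with DESeq2, 0 in each round, 0 with the endothelial and 1 with the oligodendrocyte covariate, and 0 to 5 without each library. For sex (40 genes) it was 25 from transcript sums, 17 in the first round of titles and 23 in the second round of titles. For conditioning in C57BL/6J (0 genes) it was 6 with DESeq2, 1 with each strain alone, 2 with the round, 2 with the choroid plexus, 1 with the endothelial and 1 with the neuronal covariate, and 0 to 4 without each library. For ethanol by conditioning in C57BL/6J (0 genes) it was 0 to 2 without each library, and for ethanol by sex (0 genes) 1 from transcript sums and 41 in the first round of titles. Transcript usage called 1549 genes in the first round of titles, against 2457 in all; the rounds alone hold fewer libraries.

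The labels do not say that a shared title number marks a shared animal, litter or day. Deviations of the 93 same-number pairs had a mean correlation of 0.04, against -0.01 for pairs of other numbers of the same strain and sex. Deviations cancel out over the libraries of a group, which have different numbers. The second value is therefore tied to the first and is no separate reference. Of the same-number pairs, 32 were over 0.1. The number was not taken as a pairing in the main fit. Of 63 libraries, 29 correlated best, on average, with their own among the 4 numbers of their strain and sex. Libraries sharing a number were of the same strain and sex and differed in conditioning or drug, as in a layout of blocks. Both this layout and the correlations are a hint that libraries sharing a number may not be fully independent. No allowance for this was made in the p-values of the main fit and of the permutations. For strain no block could be fitted, since each number lies within a strain and sex. With the number as a replicate block, ethanol in DBA/2J called 109 genes and its strain difference 4, against 59 and 2 without the block. Arrdc1, with 103 to 387 counts per library, had the lowest counts of the family.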
